A study of Mus musculus with 11 samples.

Results

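The promoters of the integrin and laminin subunit genes were examined for reads of an ST18 chromatin immunoprecipitation (ChIP). ST18 belongs to the MYT1 family of zinc finger proteins, which bind DNA and regulate transcription. Members were all rows of the deposited promoter table whose symbol was Itga or Itgb followed by a number or letter, without the integrin-binding protein genes Itgb1bp1, Itgb1bp2, Itgb1bp3 and Itgb3bp, or Lama, Lamb or Lamc followed by a number. This gave 39 of 21881 promoter windows, with 11 laminin and 28 integrin promoters. The rule used the symbols and no measured value, but the members were chosen with earlier results of these data known. The windows are 1000 bp long, 1 per symbol, and nothing in the sources says how they are placed relative to the transcription start.

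The ChIP group comprised 2 libraries labelled as ST18 ChIP-seq, labelled HA ChIP and in vitro, from cells called TN of the type brain cell, and it was set against 1 library titled input from the same TN cells, whose molecule label also names HA ChIP. No genotype, tagged construct, age or treatment specific to the TN cells is given in the labels, whose protocol text describes electroporated embryos. The promoter table holds 1 ST18 column and 1 input column, and the labels do not say if the ST18 column was made from both ChIP libraries or from 1. No replicate values were therefore available, and every interval below covers counting error only. The 8 RNA libraries of the series were not analysed here. The ST18 column held 438960 reads over all windows and the input column 160443, a ratio of 2.74 ST18 reads per input read, and 523 windows held no read.

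Integrins are cell surface receptors built from an alpha and a beta chain, which join the extracellular matrix or other cells to the cytoskeleton. Laminins are secreted matrix proteins built from an alpha, a beta and a gamma chain, and are a main component of basement membranes and a ligand for several integrins. In the developing cortex, the endfeet of radial glia attach to the laminin-rich basement membrane below the pia, and integrins that hold the Itgb1 chain take part in this attachment.

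Promoter sequences are shown for members at the top and the bottom of each family by enrichment, where one was listed. The sequences are RefSeq promoters of build GRCm38.p6, from 250 bases before to 50 bases after an annotated start, 5′ to 3′ on the strand of the gene. They are not the deposited windows, which are 1000 bp long and which the submitters' processing notes place on build mm9. Capitals mark AAGTT, the core of the motif known for the MYT1 family, on either strand, where it reads AACTT on the other strand. Lama2 was the highest member, and its promoter lies at chr10:27616893-27617192 on the minus strand. Itgb6 was the highest integrin, with 2 listed promoters at chr2:60673644-60673943 and chr2:60722554-60722853 on the minus strand. Itgax and Itgam, the lowest integrins, lie at chr7:128129300-128129599 and chr7:128062390-128062689 on the plus strand.
Lama2: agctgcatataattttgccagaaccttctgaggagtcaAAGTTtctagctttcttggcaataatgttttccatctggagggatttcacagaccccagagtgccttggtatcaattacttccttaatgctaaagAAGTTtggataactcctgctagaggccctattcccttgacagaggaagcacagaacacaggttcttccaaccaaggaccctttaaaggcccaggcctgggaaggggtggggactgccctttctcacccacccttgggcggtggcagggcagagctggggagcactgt
Itgb6, first listed: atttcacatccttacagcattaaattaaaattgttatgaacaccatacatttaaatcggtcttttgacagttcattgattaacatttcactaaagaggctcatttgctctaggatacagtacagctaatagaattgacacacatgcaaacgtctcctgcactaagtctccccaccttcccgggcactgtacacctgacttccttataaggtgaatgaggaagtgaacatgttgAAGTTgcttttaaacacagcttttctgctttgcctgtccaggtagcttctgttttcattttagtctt
Itgb6, second listed: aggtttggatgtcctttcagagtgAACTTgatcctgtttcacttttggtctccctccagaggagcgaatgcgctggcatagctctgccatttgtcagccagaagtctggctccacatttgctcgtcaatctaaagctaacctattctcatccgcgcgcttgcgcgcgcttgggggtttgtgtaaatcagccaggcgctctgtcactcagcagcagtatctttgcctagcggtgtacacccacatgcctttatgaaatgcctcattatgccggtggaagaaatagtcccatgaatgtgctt
Itgax: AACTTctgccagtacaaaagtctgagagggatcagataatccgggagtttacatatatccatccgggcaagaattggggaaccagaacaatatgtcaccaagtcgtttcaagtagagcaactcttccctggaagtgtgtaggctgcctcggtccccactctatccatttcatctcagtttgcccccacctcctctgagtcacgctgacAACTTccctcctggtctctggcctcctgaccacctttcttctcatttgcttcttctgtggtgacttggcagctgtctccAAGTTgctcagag
Itgam: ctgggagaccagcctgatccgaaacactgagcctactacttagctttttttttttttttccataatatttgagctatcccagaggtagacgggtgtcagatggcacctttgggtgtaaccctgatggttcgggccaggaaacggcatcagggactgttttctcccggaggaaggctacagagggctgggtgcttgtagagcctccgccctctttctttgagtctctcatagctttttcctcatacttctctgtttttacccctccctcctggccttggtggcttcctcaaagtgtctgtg

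The ST18 to input ratio of the member promoters was slightly above that of the genome's promoters, and no single member stood apart after adjustment. The 39 members held 945 ST18 reads against 282 input reads, and their summed ratio was 1.23 times the ratio over all promoters (exact Clopper-Pearson 95% interval 1.07 to 1.40, a range for counting error). Their median count was 25 ST18 reads and 7 input reads, against 20 ST18 reads and 7 input reads over all windows. The ST18 count was above the median of all windows in 31 of 39 members, where 47.7% of all windows were above it, and the input count was above the median in 19 of 39, where 46.3% of all windows were.

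The deposited log2 enrichment compares both counts after scaling the ST18 count and adding 16 to each, so it lies closer to 0 than the log2 of the count ratio. With the authors' scale, a value of 0 lies slightly below the ratio over all promoters. Lamb1, for example, was at 0.01 and had 0.914-fold that ratio. On this scale the members had a median of 0.16 (interquartile range 0.02 to 0.34), against 0.04 (−0.10 to 0.19) over all windows. Of the 39 members, 26 were above the median of all windows, where 49.6% of all windows were. The SD across members was 0.218 and that across all windows 0.225, so the members were as spread as promoters in general.

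An exact two-sided binomial test set each window's reads against the overall ratio, and its p-values were adjusted by Benjamini-Hochberg over the 21358 windows with a read. It compares the reads of the 2 columns and not the conditions. It called 0 of 39 members higher, where 0.0375% of all windows were called higher, and 0 of 39 lower, where 0.00936% were. At an unadjusted exact p under 0.05, 1 member was higher, Lama2, where 2.43% of all windows were, and 0 members were lower, where 3.32% were. A log2 enrichment of at least 0.58 was reached by 1 member, again Lama2, where 1.15% of all windows reached it, and −0.58 or lower by 0 members, where 0.219% of all windows did. A single member of 39 is close to these background shares.

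The number of reads limited what could be called. The largest unadjusted p of any called window was 2.26e-05, and a window needed at least 37 reads in both columns together to reach it on the higher side, which 9 of the 39 members had. At the members' median of 32 reads, an unadjusted p under 0.05 needed 29 ST18 reads against 3 input reads, 3.53-fold the overall ratio, or on the lower side 17 ST18 reads against 15 input reads. At 42 reads, the most that any member had, it needed 37 against 5, or 2.70-fold. Smaller differences at a single member were not detectable at this depth.

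**Figure D1:**
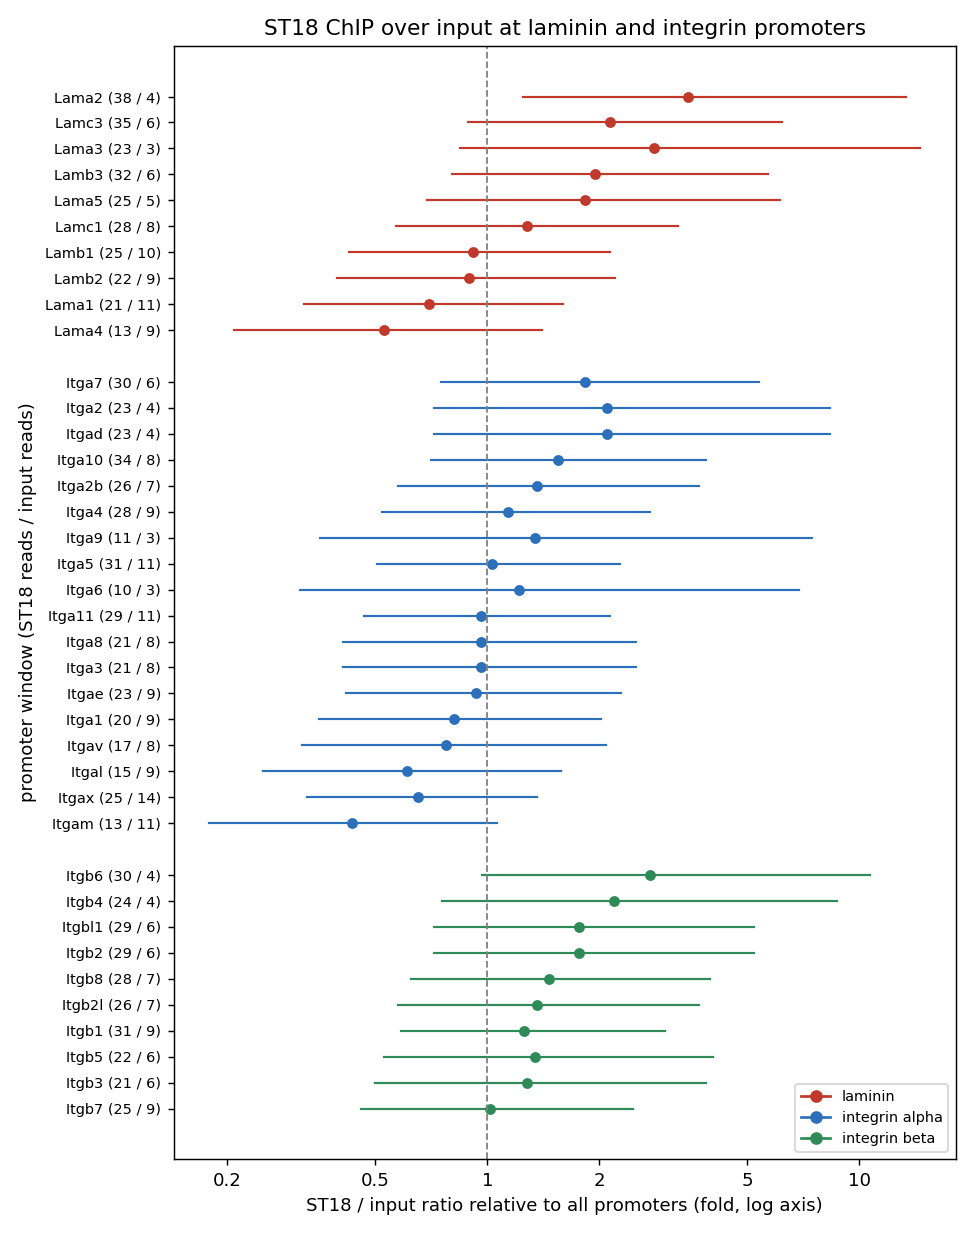
Fold of the ST18 to input ratio of each member promoter over that of all promoters, on a log axis; points are folds, lines exact 95% intervals for counting error, and the counts behind each fold stand beside the gene as ST18 reads / input reads. Of the 38 intervals plotted, 37 include 1 (dashed line), and Lama2 is the exception.

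The alpha chain genes of the laminins, whose chains carry the main binding sites for integrins, spread from the highest value of all members to one of the lowest. Lama2, the alpha chain of muscle and nerve basement membranes, had 38 ST18 reads against 4 input reads, the most ST18 reads of any member. Its log2 enrichment was 0.65, rank 119 of all windows, and its ratio was 3.47 times the overall ratio (exact 95% interval 1.25 to 13.4; exact test, unadjusted p = 0.0112, adjusted p = 0.620). The excess at Lama2 was larger than its own counting error but did not pass adjustment. Among the 1604 windows that also had 4 input reads, 98.5% had fewer ST18 reads.

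Lama3, an alpha chain of skin basement membranes, had 23 ST18 reads against 3 input reads, at 0.41. Lama5, which is widely made in epithelia, had 25 against 5 reads, at 0.32. Both lay above the median of all windows, with intervals that included 1 (0.847 to 14.6 and 0.687 to 6.11). Lama1, the alpha chain of early embryonic basement membranes, had 21 ST18 reads against 11 input reads, at −0.14, and Lama4, found around blood vessels, had 13 against 9, at −0.23. These were the lowest of the laminins, at 0.698-fold (0.322 to 1.60) and 0.528-fold (0.209 to 1.40). The ratio of Lama2 was 4.86-fold that of Lama1 (conditional exact 95% interval 1.25 to 23.6), a pair chosen after their values were seen, so this is a description.

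The values of the beta and gamma chain genes each spanned a narrower range, over fewer windows than the 5 of the alpha chains. Whether the chains differ in spread beyond counting error was not tested. Lamb3, the partner of Lama3 in skin, had 32 ST18 reads against 6 input reads, at 0.40 and 1.95-fold (0.804 to 5.70). Lamb1, a broadly made beta chain, had 25 against 10 reads, at 0.01, and Lamb2, known from synapses and the kidney filter, 22 against 9, at −0.005. Lamb3 was thus the highest and the other two lay near the level of all promoters. Among the gamma chains, Lamc3, in which human mutations cause malformed cortex, had 35 against 6 reads, at 0.46 and 2.13-fold (0.887 to 6.20). Lamc1, the gamma chain of most laminins, had 28 against 8, at 0.19. Both were above the median of all windows, and the ratio of Lamc3 over Lamc1 had an interval from 0.444 to 6.53.

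Grouped by the protein they build, Lama2, Lamb1 and Lamc1, the chains of the muscle laminin, held 91 ST18 reads against 22 input reads, 1.51-fold the ratio of all promoters (0.941 to 2.53). Lama1, Lamb1 and Lamc1, the chains of the early embryonic laminin, held 74 against 29 reads, 0.933-fold (0.600 to 1.49). Both intervals include 1, and the groups share Lamb1 and Lamc1 and differ only in the alpha chain. They were formed with the values known.

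**Figure D2:**
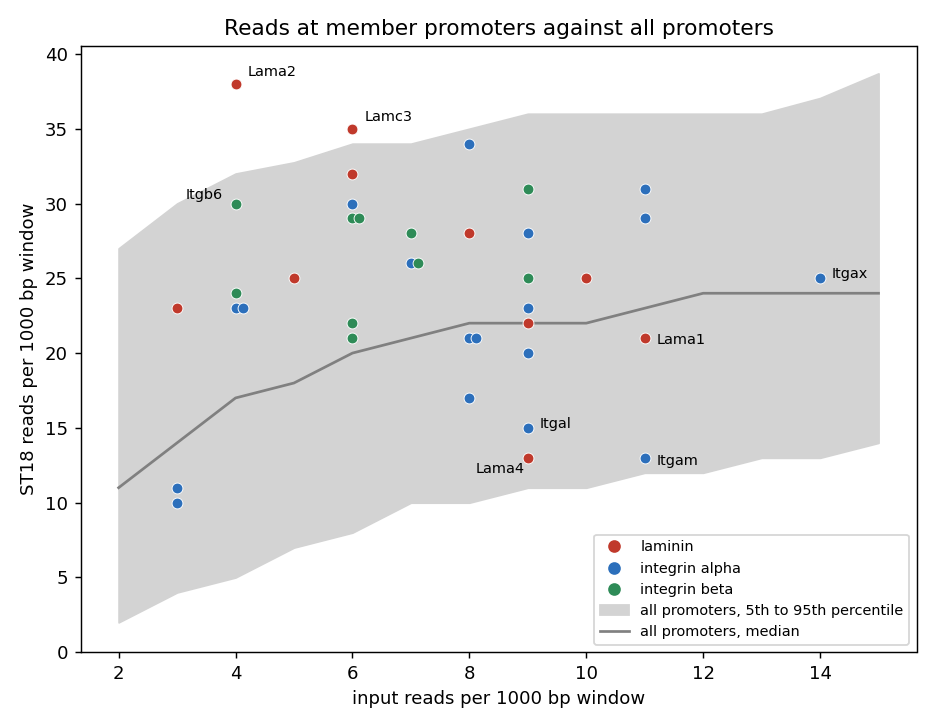
ST18 reads against input reads for 38 member windows (points), with the median (line) and the 5th to 95th percentile (band) of ST18 reads over all windows at each input count. Lama2 and Lamc3 lie above the band, and Itgam and Lama4 lie low within it.

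Among the integrin alpha chains that bind laminin, Itga7, the laminin receptor of muscle, had 30 ST18 reads against 6 input reads, at 0.36 and 1.83-fold (0.748 to 5.37). Itga6, a laminin receptor of neural progenitors and epithelia, had 10 against 3 reads, at 0.08, and Itga3, which acts in neuronal migration, 21 against 8, at 0.03. Itga6 held the fewest reads of all members, so its interval of 0.314 to 6.89 was wide. With the partner chains Itgb1 and Itgb4, these laminin receptor promoters held 116 ST18 reads against 30 input reads, 1.41-fold (0.939 to 2.19).

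The collagen-binding alpha chains were Itga1, Itga2, Itga10 and Itga11. Itga2 had 23 ST18 reads against 4 input reads, at 0.34, and Itga10, known from cartilage, had 34 against 8, at 0.31. Itga11 had 29 against 11 reads, at 0.04, and Itga1 had 20 against 9, at −0.05. Itga10 had the most ST18 reads of the integrins, and 93.4% of windows with the same input count had fewer. All 4 intervals included 1.

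Of the alpha chains that bind the RGD motif of fibronectin and vitronectin, Itga2b, the platelet chain, had 26 ST18 reads against 7 input reads, at 0.21. Itga5, the fibronectin receptor chain, had 31 against 11, at 0.08, and Itga8 had 21 against 8, at 0.03. Itgav, which pairs with Itgb3, Itgb5, Itgb6 and Itgb8, had 17 against 8, at −0.07. Summed, these 4 stood at 1.02-fold (0.684 to 1.56). Itga4, a receptor for Vcam1 and fibronectin, had 28 against 9 reads, at 0.13, and the related Itga9 had 11 against 3, at 0.11.

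The leukocyte alpha chains held the 3 lowest integrin promoters. Itgam, a complement receptor chain of myeloid cells and microglia, had 13 ST18 reads against 11 input reads, at −0.34 and 0.432-fold (0.179 to 1.06; exact test, unadjusted p = 0.0694, adjusted p = 0.888). Itgax, a dendritic cell chain, had 25 against 14 reads, at −0.20 and 0.653-fold (0.326 to 1.36), and Itgal, the lymphocyte chain that binds Icam1, had 15 against 9, at −0.18 and 0.609-fold (0.250 to 1.58). Itgax had the most input reads of any member, and its ST18 count was ordinary for such windows, with 53.3% of the 420 windows with 14 input reads holding fewer. For Itgam, in contrast, 6.46% of windows with the same input count held fewer ST18 reads.

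The other leukocyte chains had higher values. Of the 5 leukocyte alpha chains, 4 were below the median of all windows, Itgae among them, where 10929 of 21881 windows were. Itgad, which lies next to Itgax, had 23 ST18 reads against 4 input reads, at 0.34. Itgae, which pairs with Itgb7 and binds E-cadherin, had 23 against 9, at 0.02. Itgb2, the common partner of Itgal, Itgam, Itgax and Itgad, had 29 against 6, at 0.34. The ratio of the 5 leukocyte alpha chains was 0.665-fold that of the 13 other alpha chains, with an interval from 0.430 to 1.04 that included 1. Itgam, Itgax and Itgad are neighbours on chromosome 7 in RefSeq's gene order, and among the 25 members with a listed promoter, no start of another gene of the table was listed within 1000 bases.

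All 10 promoters of the integrin beta chains and beta-like genes were above the median log2 enrichment of all windows, against 9 of 18 alpha chain promoters. Itgb6, an epithelial chain that with Itgav activates TGF-beta, was the highest, with 30 ST18 reads against 4 input reads, at 0.49 and 2.74-fold (0.966 to 10.7; exact test, unadjusted p = 0.0607, adjusted p = 0.876). Itgb4, the hemidesmosome chain that pairs with Itga6, had 24 against 4 reads, at 0.36. Itgb8, which with Itgav activates TGF-beta in the developing brain, had 28 against 7, at 0.25.

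Itgb1, the partner of most alpha chains, had 31 ST18 reads against 9 input reads, at 0.19 and 1.26-fold (0.585 to 3.01). Its log2 enrichment was above that of 74.7% of all windows. Itgb5 had 22 against 6 reads, at 0.18, Itgb3, the platelet and osteoclast chain, 21 against 6, at 0.16, and Itgb7, the gut-homing chain of lymphocytes, 25 against 9, at 0.06. Of the beta-like genes, Itgbl1, which encodes a secreted protein with integrin-like repeats, had 29 against 6 reads, at 0.34, and Itgb2l had 26 against 7, at 0.21. No member of this group was below the median of all windows, and each single interval included 1.

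Summed, the beta and beta-like promoters held 265 ST18 reads against 64 input reads, 1.51-fold the ratio of all promoters (1.15 to 2.02), and the alpha promoters 400 against 142, 1.03-fold (0.848 to 1.26). The ratio of beta over alpha was 1.47-fold (conditional exact 95% interval 1.04 to 2.09). This comparison was made with the values known. Its interval included 1 without Itgb6 (1.39-fold, 0.976 to 1.99), without Itgam (1.40-fold, from 0.989), without the leukocyte alpha chains (1.31-fold, 0.901 to 1.90) and without windows of 5 or fewer input reads (1.45-fold, 0.999 to 2.11).

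**Figure D3:**
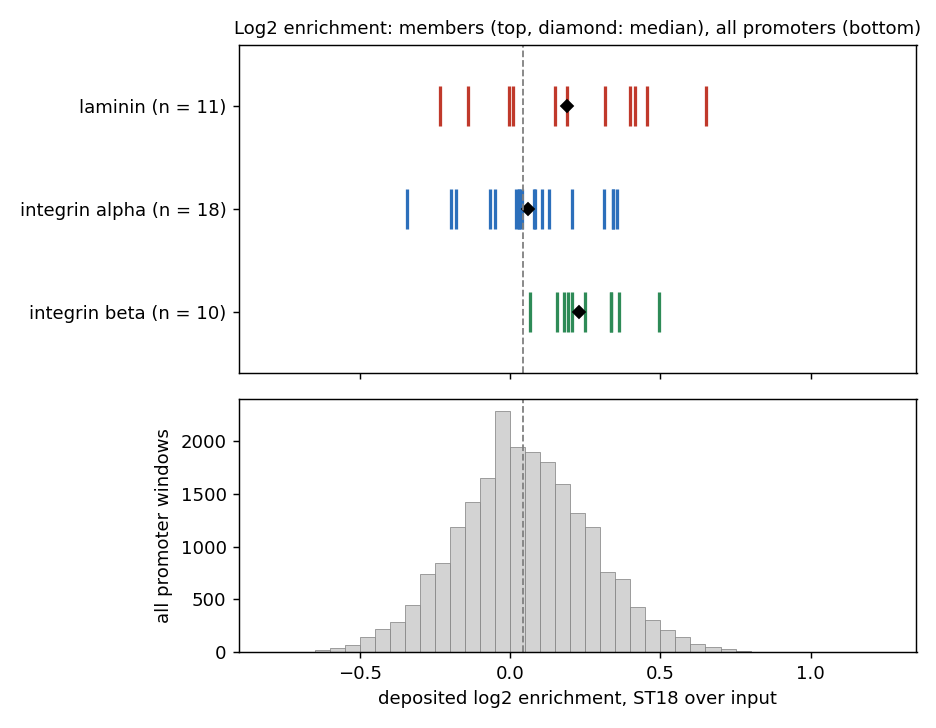
Deposited log2 enrichment of each member promoter (upper panel, 1 line per window, diamonds for medians) above the number of all promoter windows in steps of 0.05 (lower panel); the dashed line is the median of all windows, 0.04. The 10 beta and beta-like lines all lie to the right of it, and the 18 alpha lines fall 9 on each side.

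The comparison of matrix ligands with receptors found no difference beyond counting error. The 11 laminin promoters held 280 ST18 reads against 76 input reads, 1.35-fold the ratio of all promoters (1.04 to 1.76). The 28 integrin promoters held 665 against 206, 1.18-fold (1.01 to 1.39), and without Itgbl1 and Itgb2l 1.16-fold (0.981 to 1.37), an interval that includes 1. The ratio of laminins was 1.14-fold that of integrins (conditional exact 95% interval 0.840 to 1.56), and the counts are compatible with any ratio within these bounds. The median log2 enrichment was 0.19 for laminins and 0.14 for integrins, and 7 of 11 laminins and 19 of 28 integrins were above the median of all windows.

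The SD on the log2 scale was 0.274 among the laminins and 0.195 among the integrins, with ranges of −0.23 to 0.65 and −0.34 to 0.49. Whether the families differ in spread beyond counting error was not tested. Of the 11 laminins, 4 had 5 or fewer input reads, against 6 of the 28 integrins. The laminin sum rested in part on Lama2. Without Lama2, which was also the laminin with the most reads, the laminins stood at 1.23-fold (0.941 to 1.62) and the interval included 1. When windows with 5 or fewer input reads were left out everywhere, 7 laminins stood at 1.21-fold (0.898 to 1.66), with a median log2 enrichment of 0.01, against −0.005 over all such windows.

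**Figure D4:**
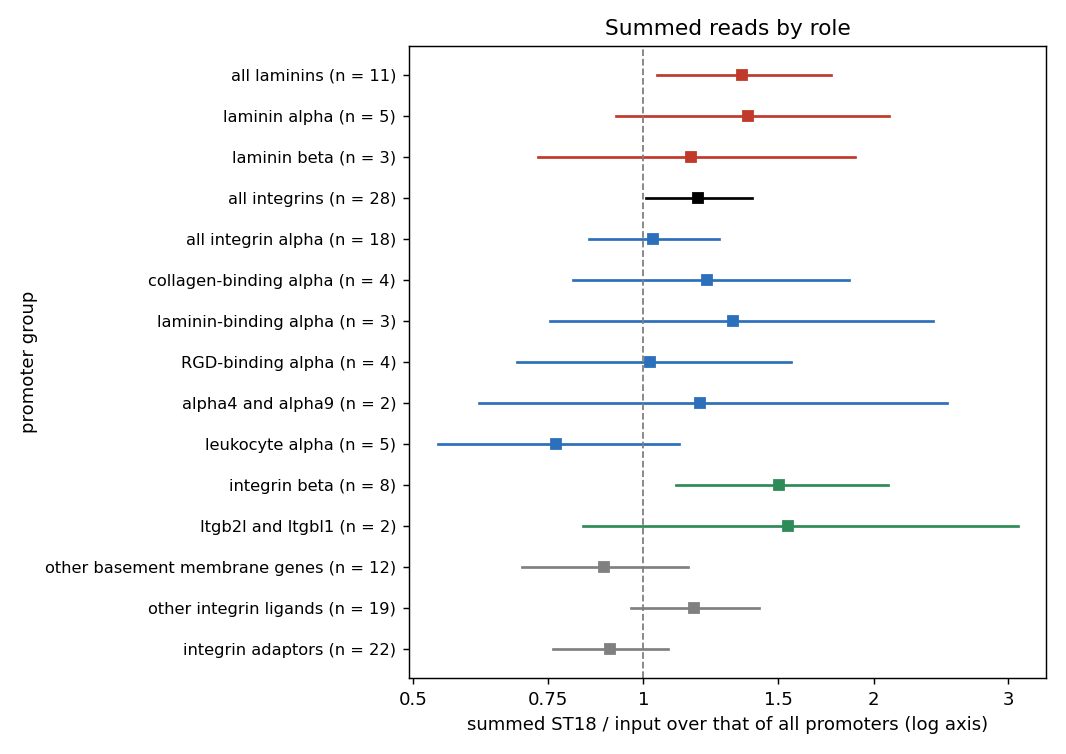
Summed ST18 to input ratio over that of all promoters, by role, on a log axis; squares are folds and lines exact 95% intervals for counting error, with the number of windows beside each group. Laminins (red) at 1.35-fold and integrins (black) at 1.18-fold overlap, integrin beta chains (green) stand at 1.51-fold with the 8 classical chains alone, and leukocyte alpha chains at 0.770-fold.

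The input count moved with the enrichment. The 13 members with a log2 enrichment above 0.3 had 3 to 8 input reads, and the 8 members below 0 had 8 to 14. The same held over all windows, where the median log2 enrichment was 0.19 at 4 input reads, 0.09 at 7 and −0.09 at 11, since the input count is the denominator. Its part in the differences between members was not tested. The ST18 count alone ranged from 10 reads at Itga6 to 38 at Lama2.

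The base composition of the promoters was described for the 25 members with a listed RefSeq promoter, of which 5 were laminins and 20 integrins. Their median G+C content was 58.7%, against 57.3% over the 14683 genes of the table with a listed promoter. Over all these genes G+C moved weakly with the log2 enrichment, with a median of 0.002 where G+C was below 52.3%, 0.05 between and 0.08 from 62% upwards, which splits the genes into 3 nearly equal parts. Members had medians of 0.31 (7 genes), 0.11 (11 genes) and 0.13 (7 genes) in the same parts, and did not follow that order. These are few genes per part, and whether the members depart from the weak trend over all genes was not tested. Lama2 had a G+C content of 50.3% and 1 CpG in 300 bases. Itgam had 50.3% and 6 CpG, and Itgax about 50% and 5 CpG, so these 3 promoters had nearly the same G+C content and Lama2 the fewest CpG.

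**Figure D5:**
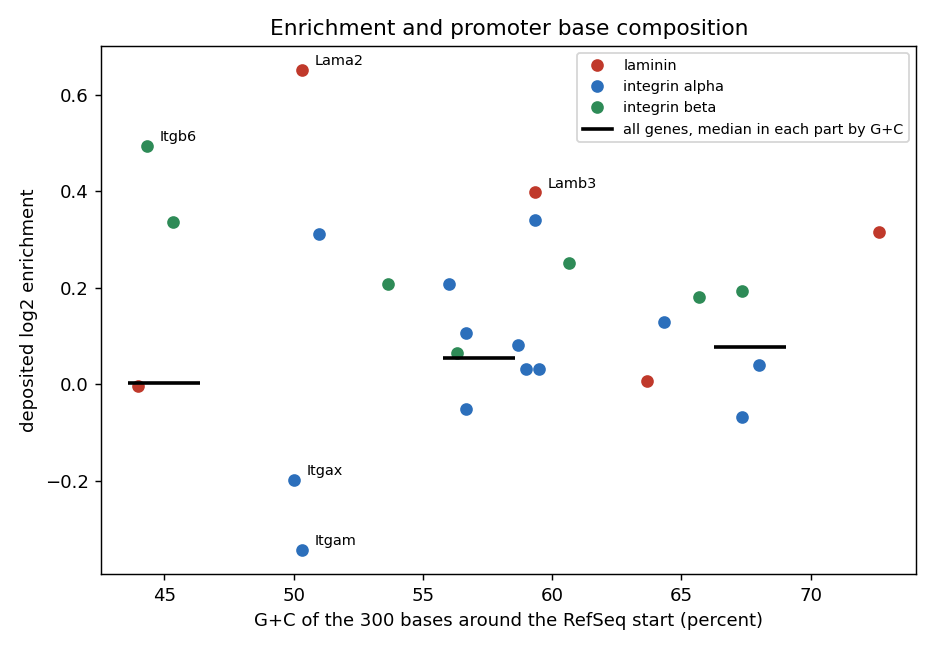
Deposited log2 enrichment against G+C content of the RefSeq promoter (mean where 2 are listed) for 25 members, with black bars for the median of all genes in each of 3 nearly equal parts by G+C. Lama2 at the top and Itgam and Itgax at the bottom all lie near 50% G+C.

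Matches to AAGTT on either strand were found in 12 of 28 listed member promoters, against 39.3% of the 32851 promoters of the RefSeq table. A match on one strand cannot overlap one on the other. By gene, 4 of 5 laminins (Lama2, Lama5, Lamb1 and Lamb2) and 7 of 20 integrins had a match, against 40.6% of all genes with a listed promoter. In the sequences above, Lama2 held 2 matches, each Itgb6 promoter 1, Itgax 3 and Itgam 0. Members with a match had a median log2 enrichment of 0.18 and those without 0.12, against 0.03 and 0.05 over all genes with and without one, and Itgax, among the lowest members, had more matches than Lama2, the highest. These are descriptions of letters in a 300 base window.

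Genes that work with integrins and laminins were examined as lists. Other basement membrane genes had a median log2 enrichment of −0.005 over 12 promoters, with 3 above the median of all windows, and a summed ratio of 0.888-fold (0.695 to 1.14). Col4a4 and Col4a6, collagen chains of basement membranes, were the highest at 0.17 and 0.11, and Sparc, a collagen-binding matrix protein, and Hspg2 (perlecan) the lowest at −0.13 and −0.10. The window of Nid1, the nidogen that links laminin to collagen, held no read. None of these promoters was called.

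Other integrin ligands had a median of 0.16 over 19 promoters, with 13 above the median of all windows, and a summed ratio of 1.17-fold (0.964 to 1.41). Thbs1, a matrix protein that activates TGF-beta, had 41 ST18 reads against 7 input reads, at 0.50, and Nov, a matricellular ligand, 17 against 2, at 0.35, with intervals that included 1 (0.951 to 5.66 and 0.737 to 27.7). Vcam1, the cell surface ligand of Itga4, was the lowest, with 7 against 11 reads, at −0.52 and 0.233-fold (0.0765 to 0.657), and Col3a1 was next at −0.21. The Vcam1 interval lay below 1, and the window did not pass adjustment over all windows. Vcam1 was picked as the lowest of the list, so its interval is a description. At an unadjusted exact p under 0.05, 1 of the 19 was lower, where 3.32% of all windows were.

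Integrin adaptors and signalling genes had a median of 0.02 over 22 promoters, with 10 above the median of all windows, and a summed ratio of 0.905-fold (0.762 to 1.08). Flna and Tln1, which link integrin tails to actin, were the highest, at 0.58 (27 against 2 reads) and 0.44 (34 against 6). The interval of Flna lay above 1, at 4.93-fold (1.24 to 42.8), and that of Tln1 included 1 (0.860 to 6.04). Pxn and Bcar1, scaffold proteins of focal adhesions, were the lowest, at −0.50 (13 against 14 reads) and −0.45 (13 against 13), with intervals below 1, of 0.147 to 0.779 and 0.156 to 0.856. These genes were picked as the extremes of the list, so their intervals are descriptions. At an unadjusted exact p under 0.05, 1 of the 22 was higher, where 2.43% of all windows were, and 2 were lower, where 3.32% were. None of the 22 passed adjustment over all windows.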

How the data were processed

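Read counts per 1000 bp promoter window were deposited by the authors in 1 ST18 and 1 input column for 21881 symbols. The deposited log2 enrichment by the authors could be recomputed to within 1e-06 in all 21881 windows by multiplying the ST18 count by 0.406, adding 16 to either count and taking the log2 of their ratio. The submitters' processing notes name Bowtie, MACS2 2.0.10.20120913, TopHat2 2.0.8, HTSeq 0.5.4p1, edgeR and mm9 without a role for each. The removal of duplicate reads is not given in the sources used here, and duplicates would make the intervals too narrow. The peak list was not used here. The members, role groups and lists were chosen with earlier results of these data known.

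Folds over the ratio of all promoters had exact Clopper-Pearson 95% intervals, and differences between groups conditional exact 95% intervals of the odds ratio, with no p. The exact binomial p was the smaller tail times 2, adjusted by the Benjamini-Hochberg method over the 21358 windows with a read. Its code was run on counts simulated from the same binomial model, which cannot show how it behaves with replicate spread or duplicates. Intervals cover counting error only, since no replicate values were available. Reads that carry no molecular identifier may be copies of one molecule, which the intervals do not account for. Every member but 1, which counts in the sums and is not reported singly here, was named, as were the 2 highest and 2 lowest of each pathway list. Promoters were to be printed for the 2 highest and 2 lowest members of each family where listed, and none from chromosome 18. Lamc3, Itgb4, Lama4 and Lama1 met this rule without a listed sequence. Python 3.11.15, NumPy 2.4.6, pandas 2.3.3 and SciPy 1.17.1 were used.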

Additional observations from a re-analysis of the deposited data

How the results depend on the processing

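The count of 0 members called became 1, Lama2, at an unadjusted p under 0.05 and 1, again Lama2, at a log2 enrichment of 0.58, and was 0 at a log2 enrichment of 1, without windows of 5 or fewer input reads, after scaling to the median of the window ratios and with the two-sided p taken as the sum of outcomes no likelier than the observed. The last was chosen after seeing the data, as were the alternatives for beta over alpha chains. Of all 21881 windows, 12 reached a log2 enrichment of 1 and 0 lay as far on the lower side. A count of 0 of 39 members is close to that background share and does not set the members apart. For the other settings with a count of 0, no share over all windows is given. Those counts therefore do not compare the members with promoters in general. The median log2 enrichment of the integrins became 0.31 with a pseudocount of 1 and the promoter totals, against 0.00 over all windows on that scale. That setting changes the pseudocount and the scale together. Under it Itga3, Itga8, Itga11, Itgae and Lamb1 lay below 0 instead of above. The sign depends on the scale alone, since the same pseudocount is added to both counts. With a pseudocount of 8 on the authors' scale no sign could change, so that setting says nothing about the signs. The ratio of laminins over integrins ranged from 1.01 to 1.17 over its 4 alternatives, the laminin sum from 1.21 to 1.44-fold over 3, and the integrin sum from 1.16 to 1.26-fold, with an interval that included 1 without Itgbl1 and Itgb2l (0.981 to 1.37). Scaling to the median of the window ratios, 2.56 in place of 2.74, raised every fold over all promoters alike. Beta over alpha ranged from 1.31 to 1.47. Fits without each ChIP replicate were not run, since the table holds 1 ST18 column. No paired analysis was possible because the ST18 column carries no replicate number.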
